A study of Mus musculus with 2 samples.

Results

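Imprinted genes are genes expressed mainly from the copy inherited from a single parent. The 10 described here, H19, Igf2, Kcnq1ot1, Cdkn1c, Igf2r, Gnas, Dlk1, Meg3, Grb10 and Peg3, were chosen by name, and 7 mm9 windows that hold them were chosen from their positions. No measured value entered the rule, but the choice was made with earlier results of these data known. The windows span 830 kb, or 166 of the 528354 steps of 5 kb that cover chromosomes 1 to 19, X and Y up to the highest coordinate in the files. The data are from kidney of male C57BL/6 mice aged 6 weeks, an inbred strain. One library was made with an antibody to 5-hydroxymethylcytosine (5hmC) by hydroxymethylated DNA immunoprecipitation (hMeDIP), and an input library was made from genomic DNA without antibody. How many animals gave the DNA is not stated, and each group is 1 library, so no value below has a replicate error or a test between conditions. Kidney is a mixture of cell types, and DNA counts cannot tell fewer cells with the mark from less of the mark in each cell. Both parental copies are counted together.

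In imprinted domains, CpG methylation laid down in the germ line on a single parental copy marks a control region, and that region sets which copy of the nearby genes is read. Several domains hold a long non-coding RNA, such as H19, Kcnq1ot1 or Meg3, next to protein-coding genes that control growth. TET enzymes oxidise 5-methylcytosine to 5hmC, so the methylated cytosines of such domains are possible substrates. The antibody reads 5hmC on either copy.

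The promoters of the members show how unevenly CpG, the main site of the mark, is spread over their starts. RefSeq (GRCm38.p6, another build than that of the fragments) gave 16 starts for 8 of the 10 members, each as 300 bases from 250 before to 50 after the start. H19 and Cdkn1c were not matched. Over all 32851 promoters of the table the median was 7 CpG, with quartiles of 3 and 20. The members ran from 1 CpG at a Meg3 start and 2 at an Igf2 start to 45 at a Grb10 start. The 4 sequences below belong to the 2 windows with the highest ratios (Gnas, Igf2r), to the window with the fewest peaks (Meg3) and to the window with the lowest ratio (Peg3). Where a member has several starts, the one with the most CpG is printed. The 4 Gnas starts held 16, 27, 28 and 40 CpG, and the start with the most CpG of all 16 belongs to Grb10, whose window ratio is among the lower 4, so these counts give no order of the windows. The sequences run 5′ to 3′ on the gene's strand, with each CpG in capitals.

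Gnas (chr2:174329756-174330055, plus strand, 40 CpG): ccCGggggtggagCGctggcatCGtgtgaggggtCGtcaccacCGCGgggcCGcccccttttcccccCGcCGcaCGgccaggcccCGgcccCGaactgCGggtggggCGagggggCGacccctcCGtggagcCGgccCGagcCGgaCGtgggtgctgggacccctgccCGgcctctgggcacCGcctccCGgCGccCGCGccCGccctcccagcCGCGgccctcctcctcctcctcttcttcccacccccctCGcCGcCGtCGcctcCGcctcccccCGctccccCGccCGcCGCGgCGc
Igf2r (chr17:12769657-12769956, minus strand, 34 CpG): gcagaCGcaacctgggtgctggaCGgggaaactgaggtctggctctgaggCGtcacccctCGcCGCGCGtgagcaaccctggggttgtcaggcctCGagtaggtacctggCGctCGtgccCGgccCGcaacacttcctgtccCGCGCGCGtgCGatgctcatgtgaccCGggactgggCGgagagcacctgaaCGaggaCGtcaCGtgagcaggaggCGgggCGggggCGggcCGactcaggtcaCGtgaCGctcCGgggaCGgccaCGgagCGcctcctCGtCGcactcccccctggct
Meg3 (chr12:109540746-109541045, plus strand, 13 CpG): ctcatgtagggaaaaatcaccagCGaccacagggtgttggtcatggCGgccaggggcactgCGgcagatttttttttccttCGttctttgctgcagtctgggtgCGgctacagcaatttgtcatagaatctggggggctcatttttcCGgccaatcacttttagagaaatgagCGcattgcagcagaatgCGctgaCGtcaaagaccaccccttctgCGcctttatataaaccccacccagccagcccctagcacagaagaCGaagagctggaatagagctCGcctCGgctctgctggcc
Peg3 (chr7:6730370-6730669, minus strand, 13 CpG): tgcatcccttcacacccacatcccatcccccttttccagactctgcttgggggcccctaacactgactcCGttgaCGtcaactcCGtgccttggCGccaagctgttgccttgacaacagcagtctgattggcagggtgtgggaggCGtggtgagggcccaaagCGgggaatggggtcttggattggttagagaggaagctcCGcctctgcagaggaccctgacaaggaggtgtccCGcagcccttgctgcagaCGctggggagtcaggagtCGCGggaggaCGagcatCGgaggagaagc

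Short motifs of factors known to act at imprinted domains were searched on both strands in all 16. TGCCGC, the motif of ZFP57, a zinc finger protein that keeps methylation at control regions, was in 3 of them (1 start each of Igf2, Meg3 and Grb10) and in 11.6% of all promoters. GNGGCAG, letters within the motif of CTCF, an insulator protein, was in 8 and in 30.7% of all promoters. ATGGCG, within the motif of YY1, was in 3 (Gnas, Meg3 and Grb10) and in 8.93%. TATAAA was in 4, at 3 Gnas starts, of which 2 overlap, and 1 Meg3 start, and in 13.6%. The Meg3 start printed above held all 4 motifs. On the other strand TGCCGC reads GCGGCA, which can share letters with GNGGCAG. A match is a description of letters. The fragments were not placed on these sequences, since the builds differ, so no value below belongs to a promoter.

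The 7 windows were compared with input and with the rest of the genome. Fragments were assigned by midpoint, and the ratio is the share of all 11424027 hMeDIP fragments that lie in a region over the share of all 8316507 input fragments there. A ratio of 1 is the genome mean of these libraries. Intervals are exact conditional binomial 95% intervals that cover counting error only. From 6414 hMeDIP and 3212 input fragments the windows together were at 1.45 (1.39 to 1.52), against 1.12 (1.08 to 1.16) in the 100 kb on either side of each. Gnas stood highest at 2.06 (1.79 to 2.38). Igf2r followed at 2.0 (1.80 to 2.24), and Kcnq1ot1 with Cdkn1c at 1.66 (1.52 to 1.80). The others lay near the genome mean, with Dlk1 and Meg3 at 1.19 (1.06 to 1.33), H19 and Igf2 at 1.13 (0.996 to 1.28), Grb10 at 1.07 (0.960 to 1.196) and Peg3 at 1.02 (0.855 to 1.23). The genome mean is not the typical window. Among autosomal windows of the same length, 62.7% lay below Peg3, 83.2% below Kcnq1ot1 with Cdkn1c, 89.6% below Igf2r and 90.2% below Gnas.

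In that order, 4 of the 6 pairs of neighbours did not differ beyond counting error. Gnas was 1.03 times Igf2r (0.861 to 1.23), and the 3 pairs among the lower 4 windows had quotients of 1.05 with intervals that span 1. Igf2r was 1.21 times (1.05 to 1.39) the Kcnq1ot1 and Cdkn1c window, and that window was 1.40 times (1.21 to 1.61) the Dlk1 and Meg3 window. The plot of windows and flanks shows this order, with 3 windows set above the other 4.

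**Figure D1:**
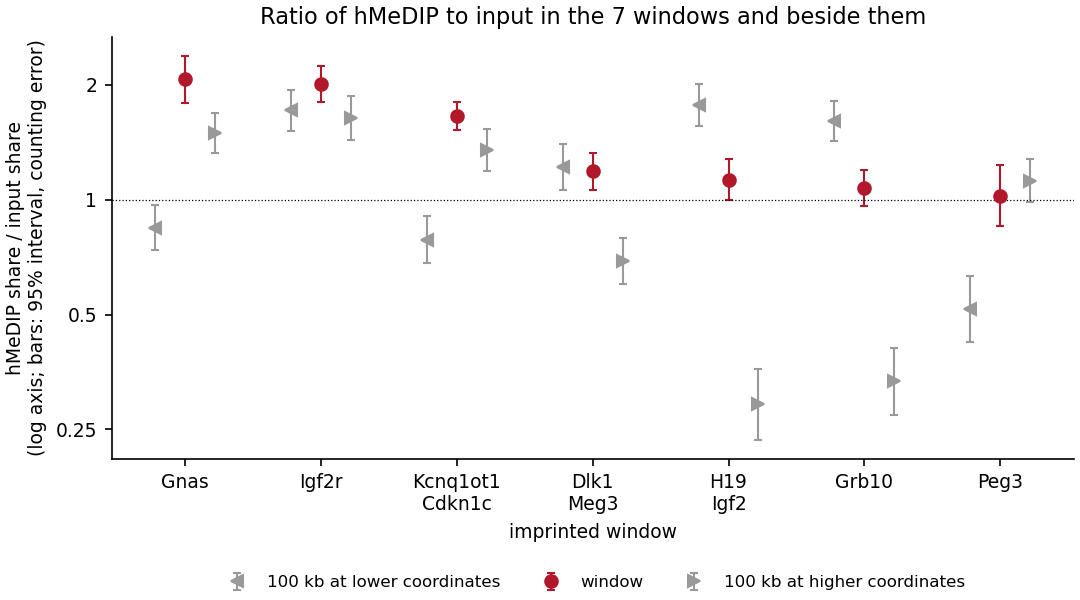
Ratio of hMeDIP to input share (log axis) for the 7 windows (circles) and the 100 kb at lower and at higher coordinates (triangles), with 95% intervals for counting error; the dotted line is the genome mean. Gnas, Igf2r and the Kcnq1ot1 and Cdkn1c window stand above 1.5, and the flanks at higher coordinates of H19-Igf2 and Grb10 fall to 0.292 and 0.335.

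In steps of 5 kb, a step needed at least 5 input fragments to be judged. It counted as high above a log2 ratio of 0.5, or as low below the negative of that, provided that its interval also left out 0. Of the 165 such steps in the windows, 53 (32.1%) were high and 12 (7.27%) low. Over all 439313 autosomal steps tested the same way, 16.9% were high and 31.4% low, and in the flanks 19.01% and 19.77%. The median step was at 1.27 in the windows and at 0.70 over all autosomal steps, with quartiles of 0.860 and 2.04 against 0.364 and 1.38. The background was not matched for gene content or base composition. Scaled to the fragments outside peaks, which adds 0.40 to every log2 ratio, the windows had 76 high (46.1%) and 3 low (1.82%) steps, against 24.7% and 19.5% over all autosomal steps. High steps were then 96.2% of the calls in place of 81.5%, and 55.9% in place of 35% over all autosomal steps. Low steps were found in 4 windows, 3 each in H19-Igf2, Dlk1-Meg3, Grb10 and Peg3, and 0 were called in the Gnas, Igf2r and Kcnq1ot1-Cdkn1c windows. Scaled to all fragments, high steps were unevenly spread, with 12 of 20 tested at Igf2r, 7 of 15 at Gnas and 15 of 42 at Kcnq1ot1-Cdkn1c. The other windows had 6 of 22 (H19-Igf2), 6 of 28 (Dlk1-Meg3), 5 of 26 (Grb10) and 2 of 12 (Peg3). Median hMeDIP counts were 57 in high steps, 12.5 in low steps and 30 in the others, and median input counts were 17, 22.5 and 20. All 53 high steps also exceeded 1.41 times the mean hMeDIP count per step of the genome (21.6). Of these 53, 28 held fewer input fragments than the autosomal median of 18, and 4 held fewer than 10. The part of low input in these calls was not tested.

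**Figure D2:**
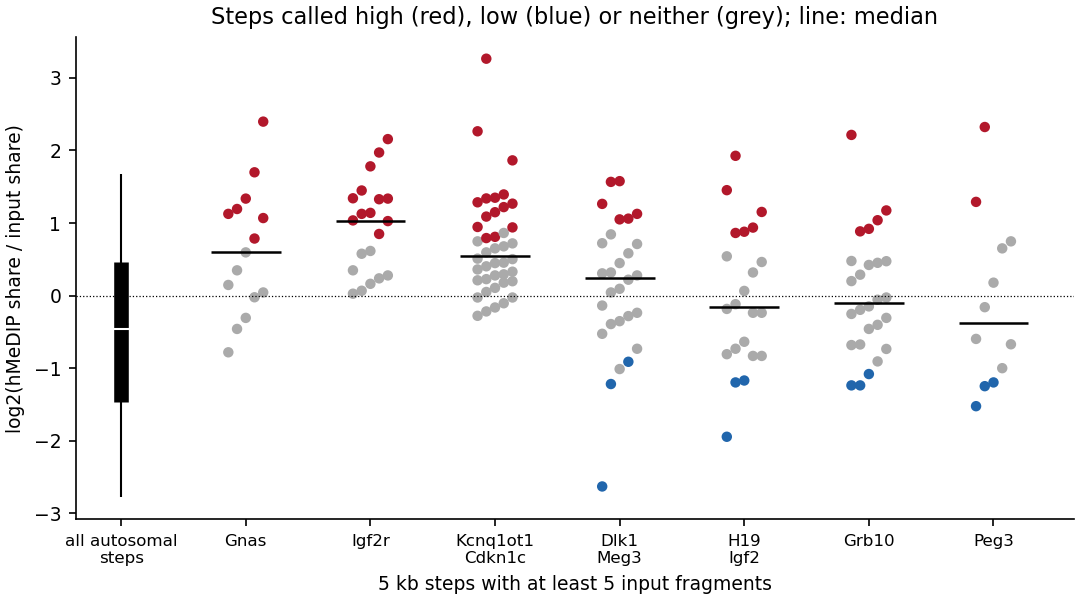
Log2 ratio of each 5 kb step with at least 5 input fragments, by window, with the window's median as a line; at the left the thick bar spans the quartiles of all autosomal steps and the thin line their 5th to 95th percentile. The medians of Gnas, Igf2r, Kcnq1ot1-Cdkn1c and Dlk1-Meg3 lie above a log2 ratio of 0, and those of H19-Igf2, Grb10 and Peg3 lie below it.

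The authors' list placed 53 peaks in the windows, or 6.39 per 100 kb against 3.73 over the autosomes. By window the density was 11 at Igf2r, 10 at Gnas, 9.52 at Kcnq1ot1-Cdkn1c and 6.36 at H19-Igf2. It was below the autosomal value at Peg3 (3.33), Grb10 (3.08) and Dlk1-Meg3 (0.714). The 53 peaks were as wide as the list as a whole, with a median of 1175 bp (532 to 3030) against 1152 bp. Their score, used here only to rank peaks, had a median of 81.0 against 85.7, and 26 of the 53 were in the upper 50% of the list. Each held 13 to 101 hMeDIP fragments and 0 to 11 input fragments, so a single peak is imprecise. In peaks the pooled ratio was 5.89 (5.10 to 6.82), a description only, since the peaks were called on this library. Outside peaks the windows were at 1.14 (1.09 to 1.19), still scaled to all fragments, of which 28.3% in hMeDIP and 5.37% in input lie in peaks genome-wide. Of the 53 high steps, 34 held the midpoint of a peak and 19 did not, while 0 of the 12 low steps did. These counts too are a description only, since the same library gave both the peaks and the calls. The matching shares over all autosomal steps were not computed.

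The genes of insulin-like growth factor signalling gave unlike values. Igf2 encodes a fetal growth factor, H19 is the non-coding RNA that shares its enhancers, Igf2r is the receptor that clears the factor by carrying it to lysosomes, and Grb10 is an adaptor that dampens insulin and growth factor receptors. At Igf2r all 20 steps exceeded 1, from 1.02 to 4.46, while H19-Igf2 and Grb10 had 10 of 22 and 11 of 26 steps above 1. Over all autosomal steps, 62.9% lay below 0.985 and 64.1% below 1.02, so most steps of the genome were below 1. The Igf2r window, chromosome 17, 12870001 to 12970000, held 1231 hMeDIP and 447 input fragments, with 12 high steps, 0 low steps and 11 peaks that covered 18.5% of the sequence. A row of 6 neighbouring high steps, the longest of any window, ran 30 kb from 12935001 to 12965000 at 2.73 (2.25 to 3.33), from 491 and 131 fragments. The highest step, 12955001 to 12960000, had 98 and 16 fragments and a ratio of 4.46 (2.61 to 8.11). It holds most of the widest peak of the 7 windows, 12957356 to 12960385 (3030 bp), at 5.10 (2.70 to 10.6) from 77 and 11 fragments. The peak with the highest score here lay near the other edge, at 12880159 to 12882656, with 76 and 11 fragments and 5.03 (2.66 to 10.5). Outside peaks the Igf2r window was at 1.498 (1.32 to 1.70). Its flanks were high as well, at 1.71 (1.52 to 1.94) and 1.64 (1.44 to 1.87), and the window was 1.195 times (1.04 to 1.38) both flanks together. With flanks of 50 kb the log2 quotient was 0.17 (-0.07 to 0.41), and with fragments outside peaks only 0.20 (-0.03 to 0.43), so both intervals span 0. In RefSeq order the listed imprinted neighbours of Igf2r are Airn, its antisense RNA, and the cation transporters Slc22a2 and Slc22a3.

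The H19 and Igf2 window, chromosome 7, 149750001 to 149860000, held separate high and low stretches. It had 655 hMeDIP and 423 input fragments, and of its 22 steps 6 were high, 3 low and 13 neither. The 3 high steps at its lower edge, 149750001 to 149765000, gave 143 and 53 fragments and a ratio of 1.96 (1.42 to 2.75). The lowest step followed close by at 149770001 to 149775000, with 10 and 28 fragments and a ratio of 0.260 (0.113 to 0.551). That step lies in the longest stretch without a peak, 37.5 kb from 149763030 to 149800490, at 0.654 (0.518 to 0.826). The highest step lay further along, at 149840001 to 149845000, at 3.80 (1.84 to 8.82) from 47 and 9 fragments. Of the 7 peaks, the one with the highest score lay at 149834800 to 149835750, with 32 and 3 fragments and 7.77 (2.43 to 39.6). The second by score, and the widest, was at 149801351 to 149802525 with 29 and 4 fragments. H19 precedes Igf2 along the chromosome in RefSeq order, and Nctc1, Ins2, Ascl2 and Cd81 lie within 10 genes of them, but the steps could not be placed on either gene.

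Grb10, at chromosome 11, 11820001 to 11950000, was mixed in the same way. Its 808 hMeDIP and 549 input fragments fell into 5 high, 3 low and 18 other steps, and its 4 peaks covered 2.98% of the sequence. The autosomal shares were 16.9% high and 31.4% low, and whether such a mix is particular to these windows was not tested. The highest step, 11925001 to 11930000, held 51 and 8 fragments, a ratio of 4.64 (2.19 to 11.3). The lowest were tied, 11885001 to 11890000 and 11900001 to 11905000, each with 14 and 24 and a ratio of 0.425 (0.203 to 0.855). The first of them lost its low call with 150 bp fragments, at a log2 ratio of -0.87 (-1.84 to 0.07), and when scaled to fragments outside peaks, at -0.83 (-1.90 to 0.17). The 4 Grb10 peaks had low scores, and the one with the highest, 11893780 to 11894863, held 31 and 7 fragments at 3.22 (1.39 to 8.67). The second, 11853265 to 11854144, held 19 and 1. None of the 4 was in the upper 50% of the list.

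The windows of H19 with Igf2 and of Grb10 also share the steepest surroundings. The 100 kb below H19-Igf2 was at 1.76 (1.56 to 2.0) with 8 peaks, and the 100 kb above at 0.292 (0.235 to 0.360) with 0 peaks. For Grb10 the same flanks were at 1.61 (1.42 to 1.81) with 9 peaks and 0.335 (0.272 to 0.409) with 0 peaks. The upper flank was thus 0.166 times (0.129 to 0.212) the lower flank at H19-Igf2, and 0.208 times (0.164 to 0.264) at Grb10. In the upper flanks 13 of 18 tested steps were low at H19-Igf2 and 10 of 15 at Grb10, with 0 high in either. Taken against both flanks together, neither window stood apart, at 1.05 (0.896 to 1.23) and 1.02 (0.884 to 1.19), with 1 flank above and the other below each of them. For Grb10 this rests on the distance, since log2 quotients were 0.28 (0.02 to 0.54) with flanks of 50 kb and 0.37 (0.18 to 0.56) with 200 kb. The profiles by step show these declines just past the upper edge of the windows.

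**Figure D3:**
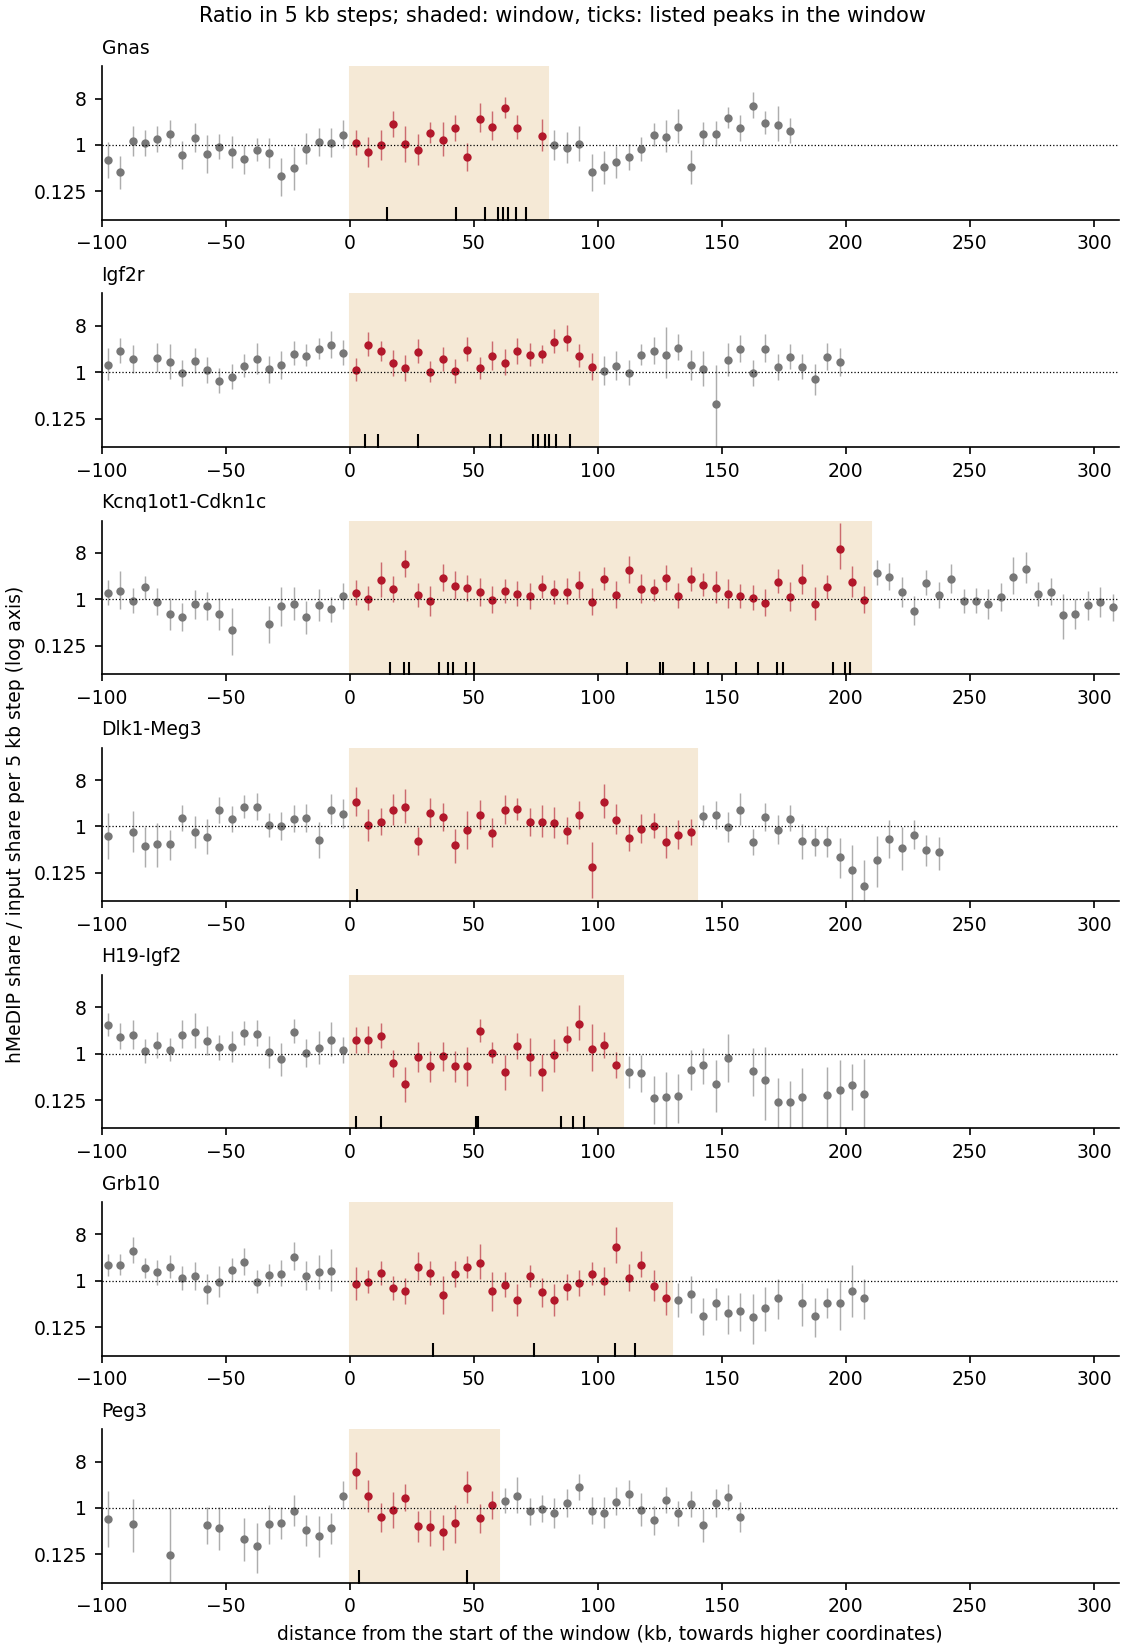
Ratio of hMeDIP to input share (log axis) in 5 kb steps with at least 5 input and 1 hMeDIP fragments, in each window (red, shaded) and its 100 kb flanks (grey), against distance from the window's start in kb; lines are 95% counting intervals and ticks mark listed peaks of the window. Ratios fall past the upper edge of H19-Igf2 and Grb10, and all 20 Igf2r steps lie above 1.

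Kcnq1ot1 and Cdkn1c were measured in the longest window, chromosome 7, 150450001 to 150660000. Kcnq1ot1 is a long non-coding RNA that silences its neighbours on the paternal copy, and Cdkn1c (p57) is an inhibitor of cyclin-dependent kinases that limits growth. The window held 1821 hMeDIP and 800 input fragments and 20 peaks. Of its 42 steps 15 were high, 0 low and 36 above 1. The lowest step was at 0.825 (0.388 to 1.77), so no step lay far below the genome mean. Of all autosomal steps, 56.1% lay below that step. High ratios were spread along the window, and its parts below and above the midpoint did not differ beyond counting error, at 1.60 (1.42 to 1.80) and 1.72 (1.53 to 1.94). The longest stretch without a peak, 60.5 kb from 150500285 to 150560823, was itself at 1.42 (1.22 to 1.66). Among steps with at least 5 input fragments, the highest of all windows lay here, at 150645001 to 150650000, at 9.61 (3.92 to 30.6) from 66 hMeDIP and 5 input fragments. Its input was at the minimum set for a step. The highest hMeDIP count of the window was 99, in the step 150470001 to 150475000, at 4.80 (2.78 to 8.91) with 15 input fragments. That step holds the peak with the highest score, also the widest of the window, 150472915 to 150474929, with 61 and 6 fragments and 7.40 (3.21 to 21.0). The next by score, 150560824 to 150562459, held 39 and 2 fragments, at 14.2 (3.68 to 121.4).

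The window stood out from its own neighbourhood. It was 1.56 times (1.37 to 1.76) its flanks, which were at 0.786 (0.681 to 0.906) below and 1.34 (1.18 to 1.53) above. The 590 kb between the H19-Igf2 window and this one was at 0.949 (0.895 to 1.01), and 15 high and 38 low steps among 111 tested, and the window was 1.75 times (1.58 to 1.94) that stretch. In RefSeq order by gene start, the listed genes Ascl2, Cd81, Tssc4 and Kcnq1 come before Kcnq1ot1, and Slc22a18 and Phlda2 come after Cdkn1c. Kcnq1 is the host gene of Kcnq1ot1, so its earlier start does not place it outside the window. Without an mm9 annotation, no gene body could be assigned to the window or to its flanks.

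Gnas, at chromosome 2, 174100001 to 174180000, encodes the stimulatory G protein alpha subunit and other transcripts from separate starts. Its 771 hMeDIP and 272 input fragments were uneven. The lower 40 kb was at 1.29 (1.05 to 1.59) and the upper 40 kb at 2.96 (2.43 to 3.62), a quotient of 2.29 (1.71 to 3.07). The upper part held 7 of the 8 peaks. Among them was the peak with the highest score of all windows, 174170121 to 174172441 (2321 bp), at 18.4 (6.96 to 68.8) from 101 hMeDIP and 4 input fragments. By score it ranked 787 of 92654, and it was the single window peak within the top 1% of the list. Its 5 kb step, at 19.1 (7.25 to 71.4) from 105 and 4 fragments, fell short of the 5 input fragments set for a step and is in no count above. The second peak by score and the next in width, 174162718 to 174165027, held 82 and 9 fragments at 6.63 (3.33 to 15.0). It lies in the highest tested step, 174160001 to 174165000, with 152 and 21 fragments and 5.27 (3.33 to 8.76). In peaks lay 52.9% of the hMeDIP fragments of Gnas, the largest share among the 7 windows. Outside peaks its ratio was 1.15 (0.971 to 1.36). Its lower flank was at 0.845 (0.739 to 0.966) with 0 peaks, and its upper flank at 1.49 (1.32 to 1.69) with 9. A step of the upper flank, with 120 and 15 fragments, was at 5.82 (3.39 to 10.7), above the highest tested step of the window. Against the upper flank alone the window was 1.38 times (1.15 to 1.67) as high. Gnas was 1.77 times (1.499 to 2.10) both flanks together, the highest such value of the 7 with flanks of 100 kb. On the log2 scale that quotient was 0.82 (0.58 to 1.07), and 0.29 (0.01 to 0.57) once fragments in peaks were left out. Kcnq1ot1-Cdkn1c at 0.52 (0.33 to 0.72) and Dlk1-Meg3 at 0.49 (0.27 to 0.71) were then above Gnas, with intervals that overlap. With flanks of 200 kb the 3 windows were at 0.56, 0.51 and 0.56.

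**Figure D4:**
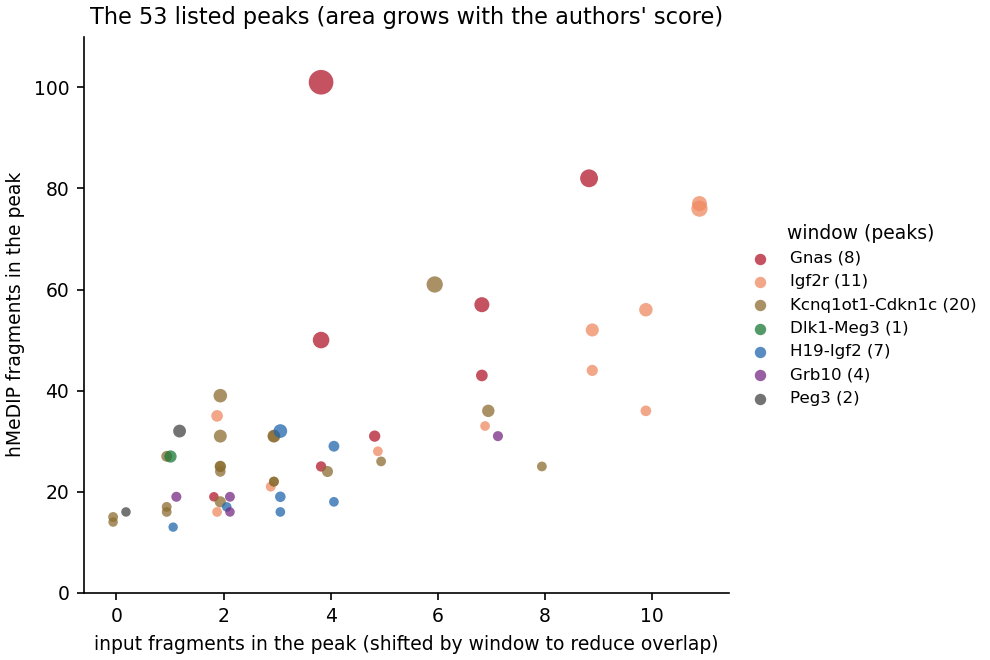
Each of the 53 listed peaks by its input fragments (x axis, shifted slightly by window) and hMeDIP fragments (y axis), with the area growing with the authors' score. A single Gnas peak stands apart at 101 hMeDIP and 4 input fragments, and the 2 largest Igf2r peaks lie at 76 and 77 hMeDIP fragments.

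Dlk1, a transmembrane protein related to Notch ligands, and Meg3, a maternally expressed non-coding RNA, were measured on chromosome 12, 110680001 to 110820000, with 834 hMeDIP and 512 input fragments. The list gave this window 1 peak, at 110682380 to 110683519 near its lower edge, with 27 and 1 fragments. The stretch of 136.5 kb above it held none and was at 1.14 (1.02 to 1.28), and 5 of the 6 high steps had no peak. The lower 70 kb was at 1.44 (1.23 to 1.69) and the upper 70 kb at 0.965 (0.823 to 1.13), a quotient of 0.672 (0.535 to 0.843). The highest and the lowest step of the window were neighbours. The step 110775001 to 110780000 was at 0.162 (0.0398 to 0.491), from 4 hMeDIP and 18 input fragments. The step 110780001 to 110785000 was at 2.98 (1.47 to 6.68), from 41 and 10. This change of 17.5 times (4.50 to 87.3) was the largest of 157 pairs of neighbouring steps. In 1 kb bins, the 5 bins below the border held 0 to 2 hMeDIP fragments each, and the bin 110784001 to 110785000 held 22 hMeDIP and 1 input fragment. The step above the border was itself uneven. Its bins starting at 110782001 and 110783001 held 1 and 2 hMeDIP and 4 and 3 input fragments, as few hMeDIP fragments as below the border. Dlk1 precedes Meg3 in RefSeq order, with Rtl1, Rian and Mirg next, and the border could not be placed on either gene.

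The Dlk1 and Meg3 window was 1.29 times (1.11 to 1.49) its flanks of 100 kb. This rests on the distance chosen. With flanks of 50 kb the log2 quotient was -0.11 (-0.36 to 0.13). The lower flank was at 1.22 (1.06 to 1.40) and the upper at 0.691 (0.602 to 0.793), where 9 of 20 tested steps were low and 1 was high.

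**Figure D5:**
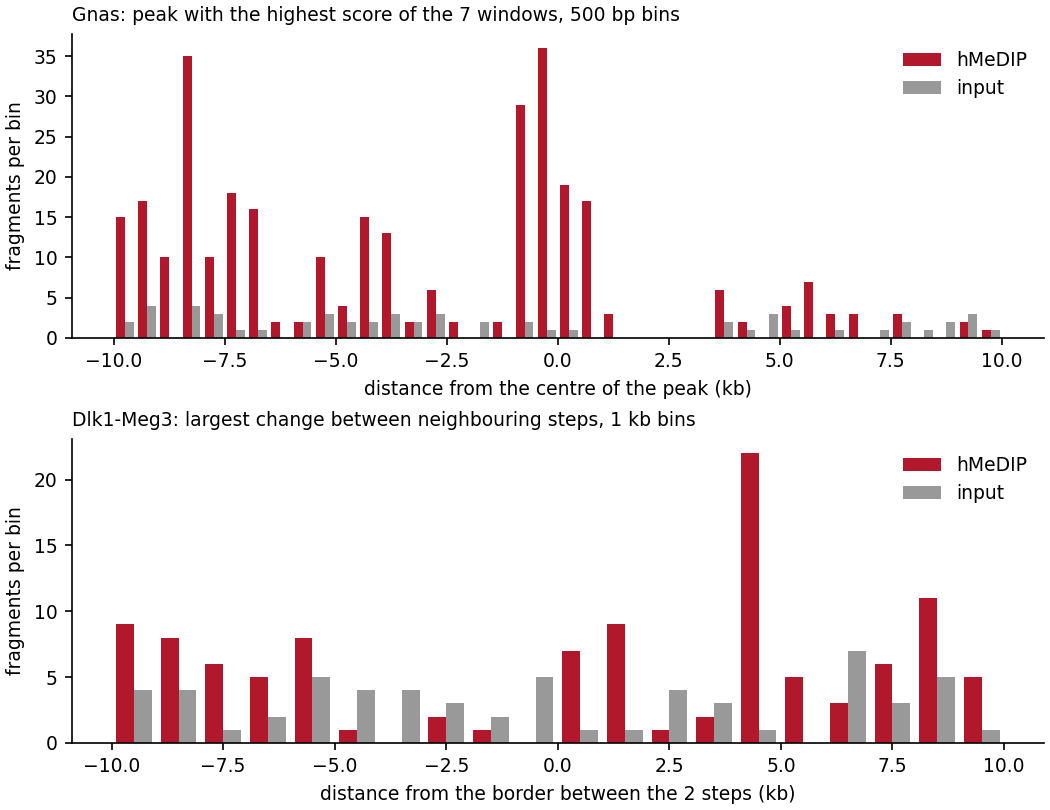
Fragments per bin for hMeDIP and input around the Gnas peak with the highest score (500 bp bins) and around the border in the Dlk1-Meg3 window (1 kb bins), against distance in kb. The Gnas bins within 1 kb of the centre hold 17 to 36 hMeDIP fragments. The 5 bins below the Dlk1-Meg3 border hold 0 to 2, and the bins starting 2 and 3 kb above it hold 1 and 2.

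Peg3, a paternally expressed zinc finger gene, had the lowest window ratio, at chromosome 7, 6640001 to 6700000, with 294 hMeDIP and 209 input fragments. It combined 2 high steps, 3 low steps and 7 others. The highest step, at its lower edge, 6640001 to 6645000, held 55 and 8 fragments, a ratio of 5.0 (2.37 to 12.2), and the peak 6642951 to 6644345 with 32 and 1. The 3 low steps were neighbours, 6665001 to 6680000, with 37 and 67 fragments and a ratio of 0.402 (0.262 to 0.609), the one run of 3 or more low steps in any window. The lowest of them, 6675001 to 6680000, was at 0.348 (0.153 to 0.743). The other peak, 6686925 to 6687964, held 16 hMeDIP and 0 input fragments. By its exact interval it was at least 2.81-fold higher in hMeDIP than in input, and against a floor of 3 input fragments the ratio was 3.88. The part below the midpoint was at 1.29 (1.003 to 1.66) and the part above at 0.781 (0.597 to 1.02). The flank at lower coordinates was at 0.517 (0.423 to 0.629) with 0 peaks, and the one at higher coordinates at 1.12 (0.985 to 1.27) with 2. Zim1 and Usp29 are its listed imprinted neighbours.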

How the data were processed

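hMeDIP and input DNA from mouse kidney were sequenced as 1 library each. CASAVA, Bowtie 1.0.0 and mm9 are listed in the submitters' processing notes. Each line of the deposited position files gives a stretch, nearly always of 350 bp, a strand and a read count. Lines were counted once, as fragments, by midpoint. Peaks were called with MACS, per the file headers, and the deposited score of each peak is the authors'. The version, control and threshold of MACS, and any read filter, are not given in the sources used.

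From these, ratios with exact conditional binomial 95% intervals, quotients of ratios with exact conditional intervals of the odds ratio, and calls of 5 kb steps were computed with Python 3.11.15, numpy 2.4.6 and scipy 1.17.1. The interval and the calls were tested on simulated counts. Windows of equal length were tiled over the autosomes, leaving out those under 50% of the median input. The median autosomal step held 17 hMeDIP and 18 input fragments, so a single step is imprecise. Intervals treat fragments as independent, which reads lacking molecular identifiers need not be. All 7 windows are described; in each, the widest peak, the top 2 by score and the highest and lowest step are named. Imprinted neighbours were looked up within 10 genes of a member in RefSeq order (GRCm38.p6), for names and order only, since no mm9 annotation was used here. The members, windows and lists were chosen with earlier results of these data known. Chosen after seeing values were the parts on either side of a window's midpoint, the separate flanks, runs and neighbouring steps, the stretch between the chromosome 7 windows, the bins of 500 bp and 1 kb and the strand shares.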

Additional observations from a re-analysis of the deposited data

Results flagged for a closer look

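The number of reads per position was in no comparison above. In the 7 windows 79 of 6414 hMeDIP positions held 2 or more reads, or 1.23% (exact Clopper-Pearson 95% interval 0.976 to 1.53), against 5 of 3212 input positions, or 0.156% (0.0506 to 0.363). The hMeDIP share stood above that of the input library. Over the whole libraries, 11634110 reads lay on 11424027 hMeDIP positions and 8368122 reads on 8316507 input positions. Reads per position were thus higher in hMeDIP than in input over the whole libraries as well. The share of positions with 2 or more reads was not counted outside the windows, so whether the windows differ from the rest is not known. Its part in the window ratios was measured by weighting positions by reads, and all 7 window ratios then stayed within their intervals.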

How the results depend on the processing

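No paired analysis was possible because each group is 1 library. With shares taken of the fragments outside peaks, every window log2 ratio gains 0.40 by construction, giving 1.45 for Gnas, 1.40 for Igf2r, 1.13 for Kcnq1ot1-Cdkn1c, 0.65 for Dlk1-Meg3, 0.57 for H19-Igf2, 0.50 for Grb10 and 0.44 for Peg3. Low steps then numbered 3 against 12. With 10 kb steps 6 of 83 were low (7.23%, against 7.27%) and 38 high (45.8%, against 32.1%). A longer step holds more fragments, and the autosomal shares for 10 kb steps were not computed. With fragments outside peaks only, which are also scaled to the totals outside peaks, log2 ratios were 0.60 for Gnas, 0.60 for Dlk1-Meg3 and 0.37 for Grb10. These include the same 0.40. Scaled to all fragments, the ratios outside peaks were 1.15, 1.15 and 0.980, each below the window's 2.06, 1.19 and 1.07. Outside peaks Gnas (log2 0.60, 0.36 to 0.85), otherwise the highest window, was level with Dlk1-Meg3. It was below Igf2r (log2 0.98, 0.80 to 1.17) and Kcnq1ot1-Cdkn1c (log2 0.74, 0.61 to 0.87), with intervals that overlap. Against the flanks, Gnas went from 0.82 to 1.39 with flanks of 50 kb, 0.56 with 200 kb and 0.29 outside peaks. Grb10 went from 0.03 to 0.28, 0.37 and 0.26 under the same settings. Dlk1-Meg3 turned from 0.37 to -0.11 with 50 kb. In the upper 50% of the list by score, peaks numbered 10 at Kcnq1ot1-Cdkn1c, 6 at Igf2r, 2 at H19-Igf2, 1 at Peg3 and 0 at Grb10. The cause of the moves with flank length was not tested. Weighting by reads, 150 bp fragments and, for the windows, leaving out bins of extreme input moved none of the 14 values they were applied to past its interval. The alternatives for the named steps and peaks were chosen after seeing the data, and their values stayed within their intervals, while 1 low Grb10 step lost its call under 2 of them. Leaving out each window in turn kept high steps between 28.3% and 34.5% of those tested, and low steps between 5.88% and 9.76%. High steps were unevenly spread over the windows, and leaving out 1 at a time does not show this.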

Other observations

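The hMeDIP fragments of the windows lay somewhat more often on the plus strand than on the minus strand. Fragments on the plus strand were 54.1% (52.9 to 55.3, exact Clopper-Pearson 95% interval) of the 6414 hMeDIP fragments in the 7 windows, against 50.02% over the genome. The input was at 49.7% (48.0 to 51.5) in the same windows. The hMeDIP share exceeded 50% in each window, from 51.3% at Dlk1-Meg3 to 57.6% (53.7 to 61.4) at H19-Igf2. Over 13469 autosomal 100 kb bins of at least 300 hMeDIP fragments, the 5th and 95th percentiles were 44.3% and 55.8%. Of these bins 98.5% lay below H19-Igf2. For the other windows that share ran from 64.7% at Dlk1-Meg3 to 95.1% at Peg3. The bins were not matched to the windows in length or number of fragments, and Peg3, with 294, falls short of the 300. The intervals cover counting error only, not this spread between bins.

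Beyond the Gnas peak with the highest score, the bins from 1.75 to 3.25 kb past its centre held 0 hMeDIP and 0 input fragments, so no ratio can be given there.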
